A study of Mus musculus with 24 samples.

Results

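The MHC class II antigen presentation genes followed here are 7 genes of the deposited table: H2-Aa, H2-Ab1, H2-Eb1, H2-DMa, H2-DMb1, Cd74 and Ciita. They were chosen by gene name, with earlier results of these data known. All 7 had a row among the 14785 genes of the table. MHC class II molecules are pairs of an alpha and a beta chain that carry peptides from engulfed proteins to the cell surface, where CD4 T cells read them. H2-Aa and H2-Ab1 encode the alpha and beta chains of I-A, and H2-Eb1 encodes the beta chain of I-E, whose alpha chain is not made in C57BL/6 mice. Cd74, the invariant chain, fills the peptide groove and guides new class II molecules to endosomes, and H2-DMa with H2-DMb1 form the H2-DM chaperone that swaps the last piece of the invariant chain for peptide. Ciita is the coactivator that switches these genes on. In kidney the proteins are best known on resident and recruited dendritic cells and macrophages, on B cells, and on tubule and vessel cells exposed to interferon gamma.

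RNA of kidney, named cortical in the series title, was sequenced after polyA selection in 24 male C57/BL6 mice, 4 in each of 6 groups; the sample labels give an age of 8 weeks and the design text 8 to 9 weeks at the start. Sham surgery was compared with unilateral ureter obstruction (UUO), in which the ureter is ligated, after 2 days (UUO2) and 7 days (UUO7). In the remaining groups the ureter was reimplanted after 7 days of UUO and kidneys were taken 1 week (R1W), 2 weeks (R2W) and 4 weeks (R4W) later. Sequenced animals were 4 of the 10 in each group, and how they were picked is not given. Levels are in FPKM, fragments relative to transcript length and sequencing depth, a unit inferred here from the values. The animals are separate, so errors are SDs over 4 mice per group unless stated. For R4W replicate 2 the sample title (4 weeks) and the treatment label (2 weeks) disagree, and the title was followed.

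Outside UUO2, the steps between low values in each of 20 libraries gave depths of 24833000 to 35360000 fragments. Such steps were found in 1 of the 4 UUO2 libraries, replicate 3, where they gave 73551000 fragments, and the mitochondrial gene mt-Rnr1 stood at 2343 to 2832 FPKM in UUO2 and 342 to 709 elsewhere. The design text speaks of 20 libraries over 3 lanes while there are 24 samples, and whether UUO2 was processed with the rest is not given. Obstruction for 2 days and that library difference cannot be told apart. The 9 kidney tissue markers, genes of tubule segments and podocytes, were above 0 in every library and summed to 5683 to 5903 FPKM in sham, 2191 to 4248 in UUO2, 2060 to 2374 in UUO7 and 4182 to 5154 in R4W. Adipose markers were high in sham replicate 2 (summed 291 FPKM), R4W replicate 1 (1644) and R4W replicate 3 (402), and sham replicate 2 also had 34.2 FPKM of urothelial markers against 1.45 to 2.31 in the other sham libraries. Urothelial markers summed to 0.470 to 3.41 FPKM in UUO2, 16.8 to 31.6 in UUO7, 11.5 to 52.3 in R1W, 23.6 to 73.9 in R2W and 42.6 to 141 in R4W, so every R4W library was above every sham and UUO7 library.

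Class II genes are known for a shared promoter module, an X box bound by the RFX complex and, nearer the start site, a Y box bound by NF-Y, on which Ciita assembles. The stretches below, from RefSeq promoter windows of 250 bases before to 50 after a start site (GRCm38.p6), are shown because they hold the letters of that module. Capitals mark the core of the X box and then that of the Y box, which reads TGATTGG. A window was found for 4 of the 7 genes by symbol. Those of H2-DMa start upstream of the gene as the deposited table has it and are not shown. The stretch of H2-DMb1 lies before the RefSeq start site but inside the gene as deposited, which starts at 34153072. H2-Oa and H2-Ob, the chains of the H2-DO protein that restrains H2-DM, are not among the 7 and are set beside them; neither was called higher at 2 days.
H2-Eb1, chr17:34305766-34305822, plus strand: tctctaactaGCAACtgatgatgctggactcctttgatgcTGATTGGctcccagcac
H2-Aa, chr17:34287857-34287914, minus strand: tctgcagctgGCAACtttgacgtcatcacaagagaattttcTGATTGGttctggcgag
H2-DMb1, chr17:34153087-34153144, plus strand: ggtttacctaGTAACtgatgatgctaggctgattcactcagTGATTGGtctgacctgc
H2-Ob, chr17:34238808-34238862, plus strand: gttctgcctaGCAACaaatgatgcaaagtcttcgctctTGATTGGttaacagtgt
H2-Oa, chr17:34092293-34092350, plus strand: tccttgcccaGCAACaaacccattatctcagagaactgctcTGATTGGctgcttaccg
The cores lay 23 to 26 bases apart, and the Y core began 45 to 63 bases before the RefSeq start site. Both strands of 32851 windows were searched. CCAAT was in 37.4% of all windows, AGCAAC in 14.8%, and AGCAAC followed by ATTGG with 20 to 40 bases between in 0.338%; of the genes shown, the last is in H2-Eb1, H2-Ob and H2-Oa. The looser GNAAC followed by TGATTGG with 15 to 40 bases between was in 0.715% of windows. It was chosen after these windows were seen and overlaps the stricter pair and CCAAT, and the windows shown are those that hold it. The window of H2-DMb2, a near copy of H2-DMb1, and both windows of H2-DMa held neither pair, which says only that these letters are not in those windows.

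After 7 days of obstruction all 7 class II genes were far above sham, and no library of UUO7 overlapped a sham library for any of them. How many of all genes lacked such overlap was not computed, in this or the later comparisons. Means were 15.9 to 18.8 times those of sham for the I-A and I-E chains, the invariant chain and H2-DMa, and 8.46 to 8.63 times for H2-DMb1 and Ciita. limma, a linear model fitted to all genes, called 7 of 7 higher at an adjusted p under 0.05, where 60.1% of all genes were called higher. Their median log2 fold change, on FPKM + 1, was 4.10 against 0.42 over all genes. Rescaling, which divides each library by the median of its ratios to the geometric means of the genes, centres that shift of the median gene. All 7 were still called higher after it, with a median of 3.62 against 0.01 over all genes. Shares of all genes called are given throughout for the values before rescaling, so rescaled counts stand without a share.

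The I-A alpha chain gene H2-Aa (chromosome 17, 34282744 to 34287827, minus strand, as deposited, mm10) was at 40.6, 57.6, 37.5 and 42.9 FPKM in sham replicates 1 to 4 and at 660, 827, 947 and 835 in UUO7. Its partner H2-Ab1 (chromosome 17, 34263209 to 34269418, plus strand) was at 39.1, 57.8, 40.2 and 38.3 in sham and 677, 773, 844 and 799 in UUO7. Sham replicate 2 was the highest sham library for both chains, and UUO7 replicate 1 was the lowest of its group. The log2 fold changes were 4.17 for H2-Aa (SE 0.26, adjusted p = 3.38e-11) and 4.13 for H2-Ab1 (SE 0.21, adjusted p = 5.95e-12). The I-E beta chain gene H2-Eb1 (chromosome 17, 34305877 to 34316199, plus strand) was at 47.8, 67.8, 42.0 and 46.5 FPKM in sham and 759, 895, 909 and 954 in UUO7. It rose by a log2 fold change of 4.10 (SE 0.23, adjusted p = 1.3e-11), so the fold changes of the 3 chains lay within 1 SE of each other.

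Cd74, the invariant chain gene (chromosome 18, 60803848 to 60812646, plus strand), was the most abundant of the 7 per transcript length. Its levels were 75.5, 117, 75.9 and 76.7 FPKM in sham and 1415, 1520, 1827 and 1728 in UUO7. Sham replicate 2 stood above the other sham libraries and still far below every UUO7 library. The log2 fold change was 4.24 (SE 0.23, adjusted p = 8.28e-12).

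The H2-DM chaperone chains were much less abundant. H2-DMa (chromosome 17, 34135182 to 34139101, plus strand) was at 2.82, 4.37, 2.74 and 3.32 FPKM in sham and 46.6, 47.2, 58.4 and 58.1 in UUO7, a log2 fold change of 3.64 (SE 0.19, adjusted p = 5.95e-12). H2-DMb1 (chromosome 17, 34153072 to 34160230, plus strand) was at 8.67, 11.2, 11.4 and 8.01 in sham and 74.5, 81.4, 99.0 and 84.0 in UUO7, a log2 fold change of 2.99 (SE 0.19, adjusted p = 4e-11). Both groups were tight and apart for either chain. H2-DMb1 has a near copy next to it, H2-DMb2, which was at 0.672 ± 0.145 FPKM in sham and 32.2 ± 5.51 in UUO7, and how fragments were divided between the copies is not known.

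Ciita (chromosome 16, 10488178 to 10527564, plus strand) was the least abundant. It was at 0.480, 0.470, 0.450 and 0.450 FPKM in sham, which is about 49 to 52 fragments per library, and at 3.52, 4.49, 2.74 and 4.90 in UUO7, about 274 to 482 fragments. The sham libraries were nearly equal, also replicate 2, which was high for the other class II genes. In UUO7 the lowest library for Ciita, replicate 3, was the highest for H2-Aa, H2-Ab1 and Cd74. The log2 fold change was 1.73 (SE 0.19, adjusted p = 5.67e-08). The scale of FPKM + 1 understates changes of genes this low; the ratio of means was 8.46.

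**Figure D1:**
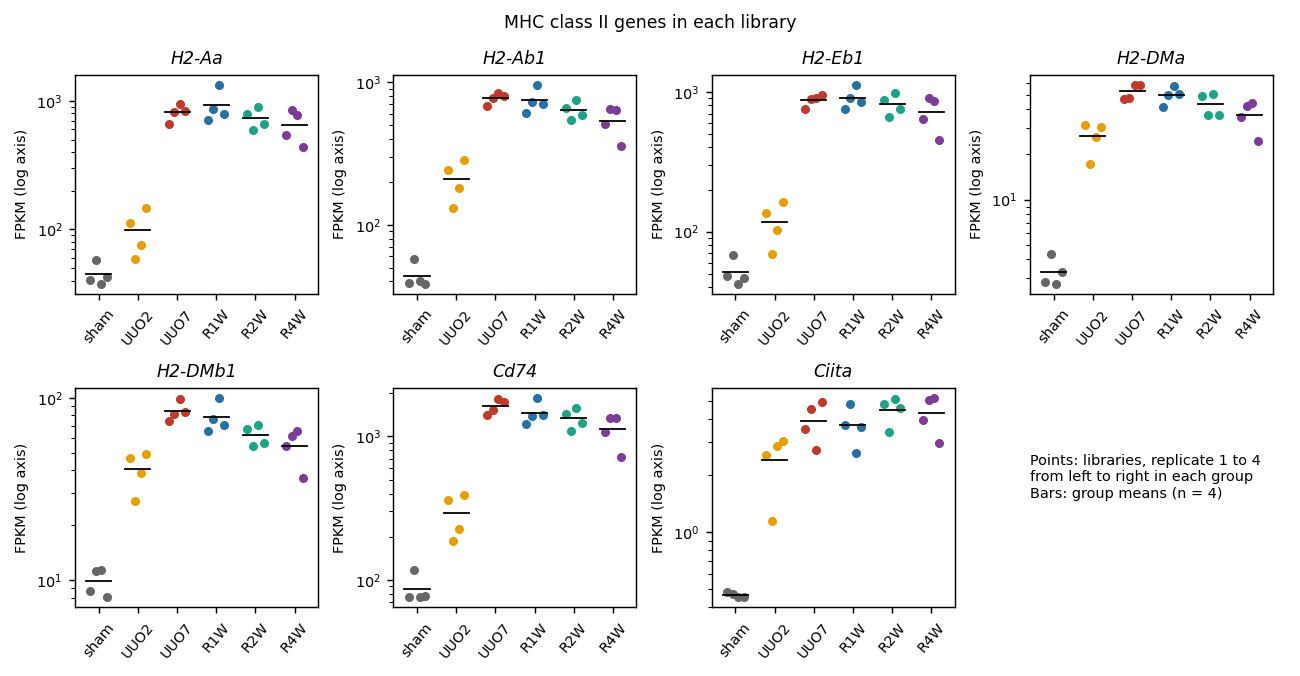
FPKM of the 7 class II genes (log axis) in each of the 24 libraries by group, with bars at the group means (n = 4). Every UUO2 library lies above every sham library for each gene, and UUO7 and the recovery groups lie higher still except for overlaps of UUO2 with later groups in H2-DMa, H2-DMb1 and Ciita.

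At 2 days of obstruction all 7 genes were already above sham, but by unequal factors. H2-DMa was 7.95 times and Ciita 5.21 times their sham means, H2-Ab1 4.79 times, H2-DMb1 4.12 times and Cd74 3.37 times, while H2-Eb1 and H2-Aa were only 2.30 and 2.22 times. limma called 7 of 7 higher, where 32.3% of all genes were called higher and 17.0% lower, and no UUO2 library overlapped sham. The UUO2 libraries stand apart from the rest as described above, and in these values the time of obstruction and that difference cannot be told apart.

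H2-Aa was at 113, 58.9, 76.1 and 148 FPKM in UUO2 replicates 1 to 4, and H2-Ab1 at 241, 132, 181 and 286. Replicate 2 was the lowest and replicate 4 the highest for both, and for H2-Aa replicate 2 was only just above the highest sham library (57.6 FPKM). The log2 fold changes against sham were 1.06 for H2-Aa (SE 0.26, adjusted p = 0.00172) and 2.19 for H2-Ab1 (SE 0.21, adjusted p = 7.51e-08). H2-Eb1 was at 135, 69.2, 103 and 162 FPKM and followed H2-Aa, with a log2 fold change of 1.14 (SE 0.23, adjusted p = 0.000353). Cd74 was at 359, 188, 227 and 389 FPKM, with a log2 fold change of 1.70. H2-DMa was at 31.3, 17.3, 26.2 and 30.6 FPKM and H2-DMb1 at 47.0, 27.2, 38.7 and 48.9. Again replicate 2 was the lowest. Its kidney tissue markers summed to 4248 FPKM against 2191 to 2540 in the other UUO2 libraries, and the part of this in its low class II levels was not tested. Ciita was at 2.58, 1.15, 2.87 and 3.04 FPKM, and its log2 fold change was 1.18 (SE 0.19, adjusted p = 3.48e-05).

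From 2 to 7 days the class II genes rose again, by unequal factors. H2-Aa rose by a log2 fold change of 3.11 (SE 0.26, adjusted p = 3.4e-09), H2-Eb1 by 2.96 and Cd74 by 2.53. H2-Ab1 rose by 1.93, H2-DMb1 by 1.08, H2-DMa by 1.00 and Ciita by 0.55 (SE 0.19, adjusted p = 0.0157). That is 7 of 7 called higher, where 52.0% of all genes were. Libraries were apart for 6, and the share of all genes with libraries apart was not computed. Ciita overlapped and was not called after rescaling (log2 fold change 0.29, adjusted p = 0.17). The count of 7 was 6 in a fit on these 2 groups alone, and 6 without UUO2 replicate 2 or UUO7 replicate 4. In the authors' deposited table Ciita had a log2 fold change of 0.32 in this comparison and an adjusted p of 0.361. This comparison and that of UUO2 with sham share the UUO2 libraries, so a high value there raises the earlier fold change and lowers the later. UUO7 means were 8.26 times those of UUO2 for H2-Aa, 2.00 times for H2-DMa and 1.62 times for Ciita.

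**Figure D2:**
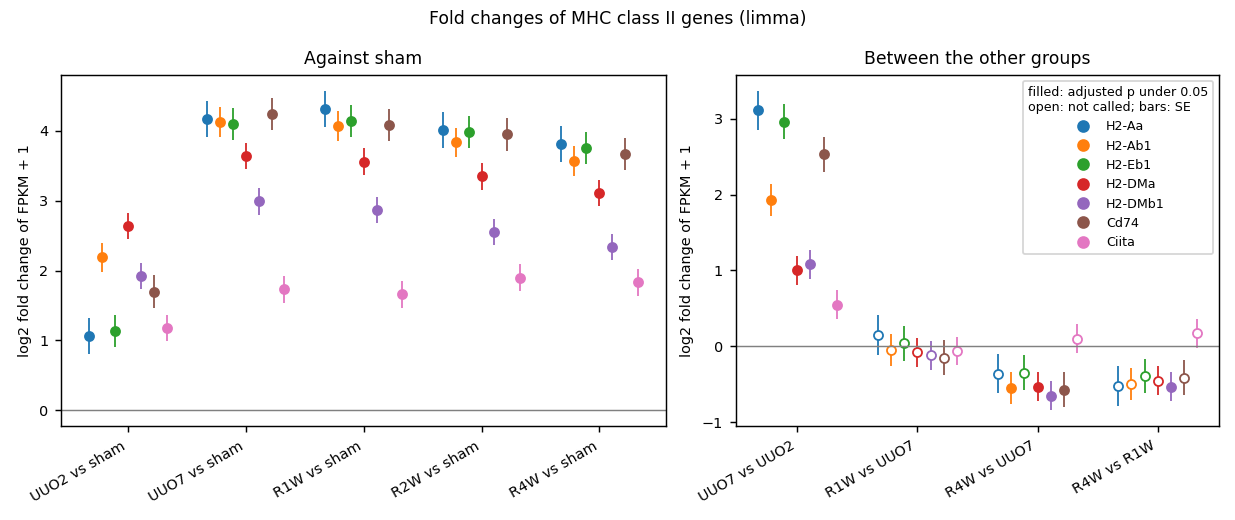
log2 fold changes of FPKM + 1 for the 7 genes in 9 comparisons, with bars for the SE; filled points have a limma adjusted p under 0.05 and open points were not called. Against sham the genes spread from 1.06 to 2.64 in UUO2; in UUO7 and recovery H2-Aa, H2-Ab1, H2-Eb1 and Cd74 sit together at 3.57 to 4.32 and Ciita lies lowest at 1.66 to 1.90, a place that in R2W and R4W depends on the pseudocount: with 0.1 in place of 1, Ciita is at 3.01 and 2.93 there and H2-DMb1 at 2.66 and 2.44.

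Ratios of 2 genes within a library do not depend on how the library is scaled, and those with H2-Ab1 set UUO2 apart from the other groups. H2-Ab1 to H2-Aa was 2.14, 2.24, 2.38 and 1.93 in the UUO2 libraries and 0.719 to 1.07 in the other 20, with group means of 2.17 ± 0.188 in UUO2 (SD, n = 4) and 0.827 to 0.982 elsewhere. The beta chain of I-A was thus above its alpha chain in every UUO2 library by a factor that no other library reached. H2-Eb1 to H2-Ab1 was 0.526 to 0.568 in UUO2 and 1.05 to 1.37 elsewhere. Cd74 to H2-Ab1 was 1.25 to 1.49 in UUO2 and 1.89 to 2.18 elsewhere, and H2-DMa to H2-Ab1 was 0.107 to 0.145 against 0.0587 to 0.0867. On all 4 ratios the UUO2 libraries lay wholly outside the range of the rest, but all 4 contain H2-Ab1, so they are not separate signs. The ratio of H2-Eb1 to H2-Aa, added after these were seen, was 1.10 to 1.35 in UUO2 and 0.841 to 1.18 elsewhere, so there UUO2 overlapped the rest. Outside UUO2 Cd74 to H2-Ab1 had group means of 1.95 (R1W) to 2.10 (UUO7), with 1.96 in sham. H2-Eb1 to H2-Ab1 was 1.27 to 1.37 in R4W, above UUO7 (1.08 to 1.19) and sham (1.05 to 1.22), and H2-Ab1 to H2-Aa had means of 0.982 in sham and 0.827 in R1W. The part of the library difference in the UUO2 ratios was not tested.

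Sham stood apart on H2-DMb1 to H2-DMa, the chains of the H2-DM chaperone. The ratio was 3.07, 2.56, 4.16 and 2.41 in sham, and 1.38 to 1.76 in the other 20 libraries, UUO2 included. Every sham library was above every other library. With H2-DMb2 at under 1 FPKM in sham and at 8.68 FPKM or more elsewhere, the division of fragments between the near copies bears on this ratio and was not tested.

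**Figure D3:**
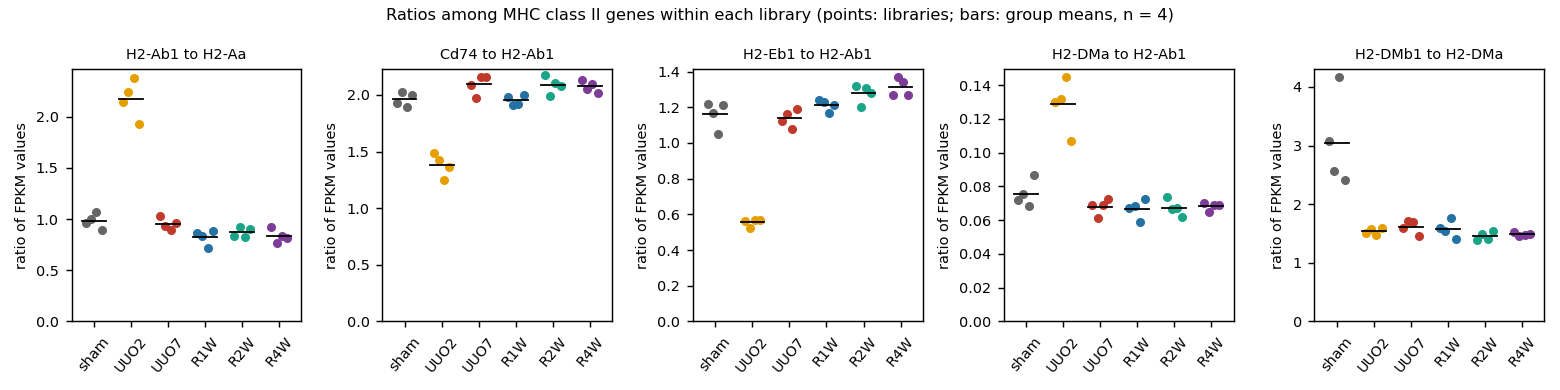
Ratios of FPKM between class II genes within each library, axes from 0, with bars at the group means (n = 4). UUO2 lies apart in the first 4 panels, for example at 1.93 to 2.38 for H2-Ab1 to H2-Aa, and sham lies apart in the last, at 2.41 to 4.16.

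A week after the ureter was reimplanted none of the 7 genes differed detectably from 7 days of obstruction. Log2 fold changes of R1W against UUO7 lay between -0.15 and 0.15, and 0 of 7 were called by limma, where 6.47% of all genes were called higher and 8.04% lower. At an unadjusted p under 0.05 the count was also 0. H2-Aa was at 707, 872, 1343 and 794 FPKM, H2-Ab1 at 612, 731, 966 and 702, and Cd74 at 1213, 1398, 1860 and 1403 in R1W. Replicate 3 was the highest and replicate 1 the lowest library for all of these, and the ranges overlapped those of UUO7. H2-Eb1 was at 760, 899, 1130 and 847, H2-DMa at 41.2, 49.9, 56.7 and 50.7, and H2-DMb1 at 65.9, 76.5, 100 and 71.2. Ciita was at 3.70, 4.80, 2.63 and 3.64 FPKM, and its lowest value was in that same replicate 3. The SE of these differences was 0.19 to 0.26, so small differences could not have been seen.

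Over the whole recovery the genes stayed far above sham. limma called 7 of 7 higher in R1W, R2W and R4W against sham, where 59.4%, 56.1% and 54.8% of all genes were called higher, and no recovery library overlapped a sham library. These comparisons and that of UUO7 share the same sham libraries. At 4 weeks H2-Aa was 14.6 times its sham mean (log2 fold change 3.81, SE 0.26, adjusted p = 7.16e-10), H2-Eb1 14.0 times, Cd74 13.0 times and H2-Ab1 12.3 times. H2-DMa was 11.1 times, Ciita 9.25 times and H2-DMb1 5.56 times, so by the ratio of means Ciita lay above H2-DMb1. In R2W, H2-Aa was at 792, 592, 904 and 659 FPKM, Cd74 at 1438, 1089, 1583 and 1234, and Ciita at 4.80, 3.42, 5.11 and 4.59. Replicate 2 was the lowest and replicate 3 the highest of that group for each. The ratios of the R2W means to sham were 16.5 for H2-Aa, 14.5 for H2-Ab1, 16.0 for H2-Eb1, 15.5 for Cd74, 13.0 for H2-DMa, 6.34 for H2-DMb1 and 9.69 for Ciita.

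Between 7 days of obstruction and 4 weeks of recovery the invariant chain, the I-A beta chain and both H2-DM chains fell, and Ciita did not pass the test. H2-Ab1 was at 508, 654, 641 and 356 FPKM in R4W, all below the lowest UUO7 library (677), a log2 fold change of -0.55 (SE 0.21, adjusted p = 0.0369). Cd74 was at 1083, 1341, 1348 and 717, also below every UUO7 library, a log2 fold change of -0.57 (SE 0.23, adjusted p = 0.0426). H2-DMa was at 35.7, 42.3, 44.3 and 24.5 (log2 fold change -0.53, adjusted p = 0.0236) and H2-DMb1 at 54.6, 61.5, 65.6 and 36.5 (log2 fold change -0.65, adjusted p = 0.00687). Replicate 4 was the lowest R4W library for each of these 4 genes. That is 4 of 7 called lower where 30.8% of all genes were called lower and 17.6% higher.

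The other class II chains were lower in mean without passing the test. H2-Aa was at 548, 852, 772 and 437 FPKM in R4W, with a log2 fold change of -0.36 (adjusted p = 0.249), and H2-Eb1 at 643, 899, 855 and 452, with -0.35 (adjusted p = 0.218). Both overlapped UUO7. Ciita was at 3.93, 5.04, 5.17 and 2.97 FPKM in R4W and its log2 fold change was 0.10 (SE 0.19, adjusted p = 0.676). After rescaling only H2-DMa (adjusted p = 0.0448) and H2-DMb1 (0.0149) stayed called. The count of 4 was 2 without UUO7 replicate 2 or R4W replicate 1, and 1 without UUO7 replicate 3, UUO7 replicate 4 or R4W replicate 4. The summed macrophage markers of R4W replicate 4 were 805 FPKM against 1104 to 1590 in the other R4W libraries and its kidney tissue markers were the highest of the group at 5154; their part in its low class II levels was not tested. Called higher in R4W against UUO7 were 4 of 5 urothelial, 9 of 9 kidney tissue and 2 of 5 adipose markers, where 17.6% of all genes were. The part of these shifts in tissue content in the class II changes was not tested. In R4W against R1W 1 of 7 was called lower, where 14.1% of all genes were called lower and 5.06% higher. It was H2-DMb1, with a log2 fold change of -0.53 and an adjusted p of 0.0498, and it was not called after rescaling.

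The group means of H2-Ab1, Cd74, H2-DMa and H2-DMb1 had the same order, sham, UUO2, R4W, R2W, R1W and UUO7 from low to high, and H2-Aa and H2-Eb1 differed only in having R1W above UUO7. For the I-A and I-E chains and Cd74, neither sham and UUO2 nor UUO2 and R4W overlapped, and from R4W upward every neighbour overlapped. For H2-DMa and H2-DMb1 UUO2 overlapped R4W. Ciita had sham, UUO2, R1W, UUO7, R4W and R2W, with every neighbour above sham overlapping. The authors' deposited table gives the same direction for the 4 genes that fell from UUO7 to R4W, with log2 fold changes of -0.46 for H2-Ab1, -0.49 for H2-DMa, -0.48 for H2-DMb1 and -0.47 for Cd74.

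Within groups the class II genes went up and down together from animal to animal, with Ciita the loosest. Over the 24 libraries Pearson's r of the deviations from group means of log2(FPKM + 1) was 0.87 to 0.98 in the 15 pairs without Ciita and 0.43 to 0.60 in the 6 pairs with it. Each library contributes all of its genes, so library scaling and cell content are shared by the points, and Ciita has the fewest fragments. These values are a description.

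**Figure D4:**
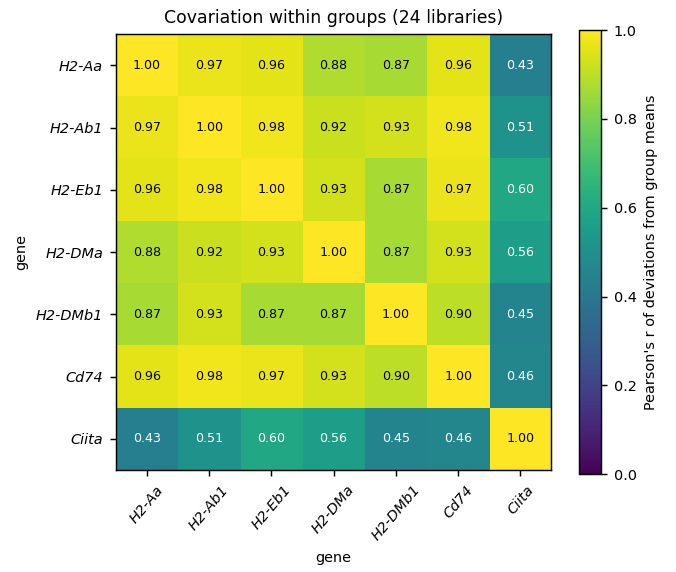
Pearson's r between pairs of class II genes over 24 libraries, computed on deviations of log2(FPKM + 1) from group means. The 15 pairs without Ciita range from 0.87 to 0.98 and the 6 pairs with Ciita from 0.43 to 0.60.

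The genes whose levels were most like the mean of the 7 members over the 24 libraries were C1ra (r = 0.991), Tgfbi (0.990), Alox5ap (0.989), Coro1a (0.988) and Cx3cr1 (0.987), followed by Rcn1, Psmb8, B2m, Emp3 and Tmem173. B2m, the light chain of MHC class I, went from 195 FPKM in sham to 432 in UUO2, 843 in UUO7 and 755 in R4W, and Psmb8, an immunoproteasome subunit, from 9.97 to 22.0, 86.3 and 62.1. Cx3cr1, the fractalkine receptor of mononuclear phagocytes, went from 0.580 to 3.84, 13.2 and 9.43. With the group means taken out the closest genes were Klf4 (r = 0.948), Ptger4 (0.945), Runx1 (0.942), Glipr2 (0.937) and Mgl2 (0.934), then Smox, Glipr1, Lig1, Kcnn4 and Selplg. The lists share no gene.

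The H2-DO chains, partners of the H2-DM pathway, were not called higher at 2 days. H2-Oa was at 0.585 ± 0.191 FPKM in sham, 0.378 ± 0.0896 in UUO2, 4.32 ± 1.01 in UUO7 and 4.90 ± 1.32 in R4W. H2-Ob was at 0.522 ± 0.145, 0.270 ± 0.0600, 2.71 ± 0.524 and 3.98 ± 1.15. Neither was called in UUO2 against sham (log2 fold changes -0.20 and -0.26), and both were called higher in UUO7 (1.73 and 1.28) and in R4W (1.87 and 1.69). H2-Ob rose further from UUO7 to R4W by 0.41 (adjusted p = 0.0296), but was not called with R4W replicate 2 placed in R2W (0.123) nor without UUO7 replicate 1 (0.119), R4W replicate 2 (0.102) or R4W replicate 3 (0.118). H2-DMb2 instead was called higher at 2 days already, at 17.3 ± 6.51 FPKM, and fell from UUO7 to 14.5 ± 4.49 in R4W (log2 fold change -1.14, adjusted p = 0.000389). Of the 5 chains listed beside the members 3 had a row.

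Among 7 genes that process the invariant chain and antigen or turn class II over, Ctss had the greatest fold change in UUO7. Ctss, cathepsin S, which makes the last cut of the invariant chain in antigen presenting cells, rose from 5.89 ± 1.82 FPKM in sham to 17.3 ± 5.55 in UUO2, 185 ± 21.8 in UUO7 and 155 ± 49.4 in R4W. Ctsl and Lgmn, lysosomal proteases also abundant in tubule, were highest at 2 days: means of Ctsl were 291, 679, 573 and 299 FPKM and of Lgmn 291, 798, 427 and 244 in sham, UUO2, UUO7 and R4W, the order in which runs of 4 means are given from here on. Ifi30, a lysosomal thiol reductase induced by interferon gamma, was at 47.0, 72.8, 118 and 91.7 FPKM. In UUO7 against sham 5 were called higher and March8, a ubiquitin ligase, lower (-0.60), where 60.1% and 17.8% of all genes were; after rescaling 4 were higher and 2 lower. In R4W against UUO7 Ctsl, Lgmn and Ifi30 were called lower, Ifi30 not after rescaling nor without UUO7 replicate 3, R4W replicate 1 or R4W replicate 4 (adjusted p = 0.0639 to 0.0897), and Ctss was not called (log2 fold change -0.30, adjusted p = 0.403). In the same comparison March8 rose by 0.38 (adjusted p = 0.00103). March8 is named after its values were seen.

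The DNA-binding factors of the class II promoter module had, in UUO7 against sham, a median change close to that of all genes, with Rfx5 and Creb1 above it. The 7 genes of the RFX and NF-Y complexes and Creb1 had a median log2 fold change of 0.38 in UUO7 against sham, where the median gene had 0.42, and summed to 94.9 to 97.1 FPKM in sham and 109 to 117 in UUO7. Of these 6 were called higher and 1 lower, where 60.1% and 17.8% of all genes were, but 2 higher and 1 lower after rescaling. Rfxap went from 18.6 ± 1.23 to 24.3 ± 1.39 FPKM, Rfxank from 8.79 ± 0.841 to 12.7 ± 1.13 and Nfya from 9.64 ± 1.16 to 12.8 ± 0.894. None of these 3 was called after rescaling. The 2 that were are named after their values were seen: Rfx5 went from 5.72 ± 0.694 to 11.8 ± 1.16 FPKM (log2 fold change 0.93, adjusted p = 1.08e-06) and Creb1 from 2.96 ± 0.381 to 5.22 ± 0.406 (0.65, adjusted p = 2.96e-06). Nfyc went from 41.9 ± 2.37 to 36.3 ± 1.07 and was the 1 called lower on both scales. It was not called lower without sham replicate 3 or 4 or UUO7 replicate 1, 2 or 3. In UUO2 against sham the median of the 7 was -0.12 where that of all genes was 0.09, with 1 called higher and 1 lower, where 32.3% and 17.0% of all genes were, and 1 higher and 4 lower after rescaling. Without UUO2 replicate 2 the counts were 3 higher and 2 lower, and without sham replicate 4 they were 1 higher and 2 lower. In UUO7 against UUO2 the median was 0.47 beside 0.28. From UUO7 to R4W, Rfx5, Rfxap and Rfxank were called lower and Nfyc higher, where 30.8% and 17.6% of all genes were. After rescaling 2 were lower and 2 higher. Only 1 was called lower without UUO7 replicate 3, R4W replicate 1 or R4W replicate 4.

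Genes of the interferon gamma arm, the best known inducer of Ciita, rose with obstruction. Ifng itself had no row among the genes tested; of the 7 others 6 were called higher in UUO2 against sham, where 32.3% of all genes were. All 7 were called higher in UUO7, R1W, R2W and R4W, where 60.1%, 59.4%, 56.1% and 54.8% of all genes were. After rescaling the counts were 6 in UUO2, with 1 lower, and 5 in each later group, with no share of all genes on that scale. Ifngr1, a receptor chain, was at 13.5 ± 0.915 FPKM in sham, 26.6 ± 4.17 in UUO2, 52.4 ± 6.58 in UUO7 and 43.8 ± 7.72 in R4W. Irf1, a transcription factor induced by interferon gamma, was at 8.63 ± 2.47, 22.8 ± 9.08, 50.7 ± 3.09 and 33.0 ± 3.69. Irf1 fell from UUO7 to R4W by 0.61 (adjusted p = 0.0297) and was not called after rescaling, nor without UUO7 replicate 1, 3 or 4 or R4W replicate 4 (0.0544 to 0.0844).

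On the side of the presenting cell, all 4 costimulatory or inhibitory ligands with a row were called higher in UUO7 and in R4W against sham, also after rescaling; of all genes 60.1% and 54.8% were. Cd40, which receives help from T cells, was at 0.913 ± 0.117 FPKM in sham, 1.70 ± 0.683 in UUO2, 14.2 ± 0.321 in UUO7 and 7.29 ± 2.00 in R4W. It was the only one of the 4 called in UUO2, where 32.3% of all genes were called higher, and was not called there without sham replicate 3 (adjusted p = 0.0568) or UUO2 replicate 4 (0.125). It fell from UUO7 to R4W by 0.90 (adjusted p = 0.00022). Cd86, a ligand of Cd28, was at 0.650, 1.04, 5.45 and 5.01 FPKM. Icosl was at 3.12, 2.71, 11.9 and 13.8, and Cd274, which encodes PD-L1, at 1.08, 0.913, 2.42 and 3.19. Cd274 rose from UUO7 to R4W by 0.29 (adjusted p = 0.0366), but was not called with R4W replicate 2 placed in R2W (0.0996) nor without UUO7 replicate 1, 2 or 3 or R4W replicate 2 or 3 (0.0539 to 0.107).

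T cell genes were not called at 2 days and were above sham at 7 days and throughout recovery. Their summed means were 18.5 FPKM in R2W and 20.8 in R4W. If R4W replicate 2 was counted under R2W, as its treatment label has it, they were 20.3 and 18.6, so which group is higher turns on that library. Of 9 listed 5 had a row; limma called 0 in UUO2 against sham, where 32.3% of all genes were called higher and 17.0% lower, also 0 at an unadjusted p under 0.05, and 5 in UUO7, R1W, R2W and R4W, where 60.1%, 59.4%, 56.1% and 54.8% of all genes were called higher. Cd4, the coreceptor that binds class II, was at 0.158 ± 0.0618 FPKM in sham, 0.163 ± 0.0714 in UUO2, 1.94 ± 0.339 in UUO7 and 3.91 ± 2.02 in R4W. Cd3g was at 0.407 ± 0.0814, 0.473 ± 0.136, 3.88 ± 0.672 and 8.38 ± 3.14. From UUO7 to R4W, where 4 class II genes fell (2 after rescaling), Cd3g rose by 0.89 (adjusted p = 0.00102) and Cd4 by 0.66 (adjusted p = 0.0185), and 3 of 5 were called higher, also after rescaling, where 17.6% of all genes were. The third was Cd3e (0.68), named after its values were seen. Cd4 was not called with R4W replicate 2 placed in R2W (0.43, adjusted p = 0.146), nor without UUO7 replicate 1 (0.0588), R4W replicate 2 (0.0921) or R4W replicate 3 (0.0615); Cd3g and Cd3e kept their calls. Lag3, which also binds class II, was at 2.25 ± 0.355 FPKM in UUO7 and 2.70 ± 0.630 in R4W, and Cd3d at 2.03 ± 0.561 and 2.74 ± 0.880.

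In whole tissue more cells of a type and more RNA per cell cannot be told apart, so the markers of the cells that carry class II are given beside the members. Macrophage markers summed to 66.9 to 106 FPKM in sham, 105 to 231 in UUO2, 1176 to 1391 in UUO7 and 805 to 1590 in R4W, with none of 10 at 0 in any library. In UUO7 against sham 9 of 10 were called higher and Mertk lower (-0.43), where 60.1% and 17.8% of all genes were, with a median log2 fold change of 3.66 beside 4.10 for the class II genes. C1qa, C1qb and C1qc, the chains of complement C1q, had 4.84, 4.30 and 4.60, and Lyz2 4.49. The scale of FPKM + 1 understates changes of markers low in sham, so the 2 medians do not rank the lists. Adgre1, Fcgr1 and Mrc1, named after their values were seen, were at 0.665, 0.323 and 0.585 FPKM in sham. In UUO7 these markers were at 15.8, 14.0 and 16.4 FPKM. In UUO2 7 were higher and Csf1r (-1.06) and Mertk (-0.58) were called lower, where 32.3% and 17.0% of all genes were; these 2 are named after their values were seen. From UUO7 to R4W C1qa changed by -0.70 (adjusted p = 0.0612), C1qb by -0.48 and C1qc by -0.63, and Lyz2 by 0.66 (adjusted p = 0.0884), none of them called. Of the 10 markers 1 was called higher in that comparison and 2 lower, where 17.6% and 30.8% of all genes were. These 3, picked for naming once their values were known, were Mertk (0.89, adjusted p = 1.91e-05), Fcgr1 (-0.83, adjusted p = 0.00092) and Mrc1 (-0.75, adjusted p = 0.0207). All 3 kept their calls after rescaling, and Lyz2 was then called higher too (adjusted p = 0.0327), as it was without R4W replicate 4 (0.0465). Mrc1 was not called without UUO7 replicate 3, R4W replicate 1 or R4W replicate 4 (0.0568 to 0.0775). With R4W replicate 2 placed in R2W 4 were called lower, C1qa (-0.82, adjusted p = 0.0396) and C1qc (-0.76, 0.0377) among them. The part of macrophage content in the class II levels was not tested.

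Set against the mean log2 level of the 10 macrophage markers in the same library, the class II genes did not all keep step. H2-Aa exceeded that mean by 2.95 ± 0.04 in sham, 3.16 ± 0.42 in UUO2, 3.83 ± 0.20 in UUO7 and 3.69 ± 0.09 in R4W, and Cd74 by 3.88 ± 0.10, 4.73 ± 0.34, 4.82 ± 0.18 and 4.48 ± 0.12. H2-DMa lay at -0.45 ± 0.05, 1.34 ± 0.41, -0.10 ± 0.20 and -0.41 ± 0.11 on the same scale. H2-DMa thus lay at a like distance in sham and R4W and well above it in every UUO2 library. H2-DMb1 exceeded it by 0.88 ± 0.27 in sham and 1.94 ± 0.37 in UUO2, and then by 0.58 ± 0.20 in UUO7, 0.05 ± 0.29 in R2W and 0.15 ± 0.13 in R4W. All R4W libraries (0.02 to 0.32) lay below all sham libraries (0.67 to 1.27) for H2-DMb1. Ciita also came to lie lower against the macrophage mean than in sham, from -1.99 ± 0.22 in sham and -1.67 ± 0.52 in UUO2 to -3.56 ± 0.22 in UUO7 and -3.23 ± 0.08 in R4W. These are differences of log2(FPKM + 1), a scale that compresses changes of a gene as low as Ciita. It also compresses markers within the macrophage mean that were low in sham, such as Fcgr1 (0.323 FPKM) and Mrc1 (0.585). From sham to UUO7, Mertk in that mean went from 10.9 to 7.83 FPKM and Csf1r from 18.3 to 39.0. A rise against the mean is therefore not a rise against each marker.

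**Figure D5:**
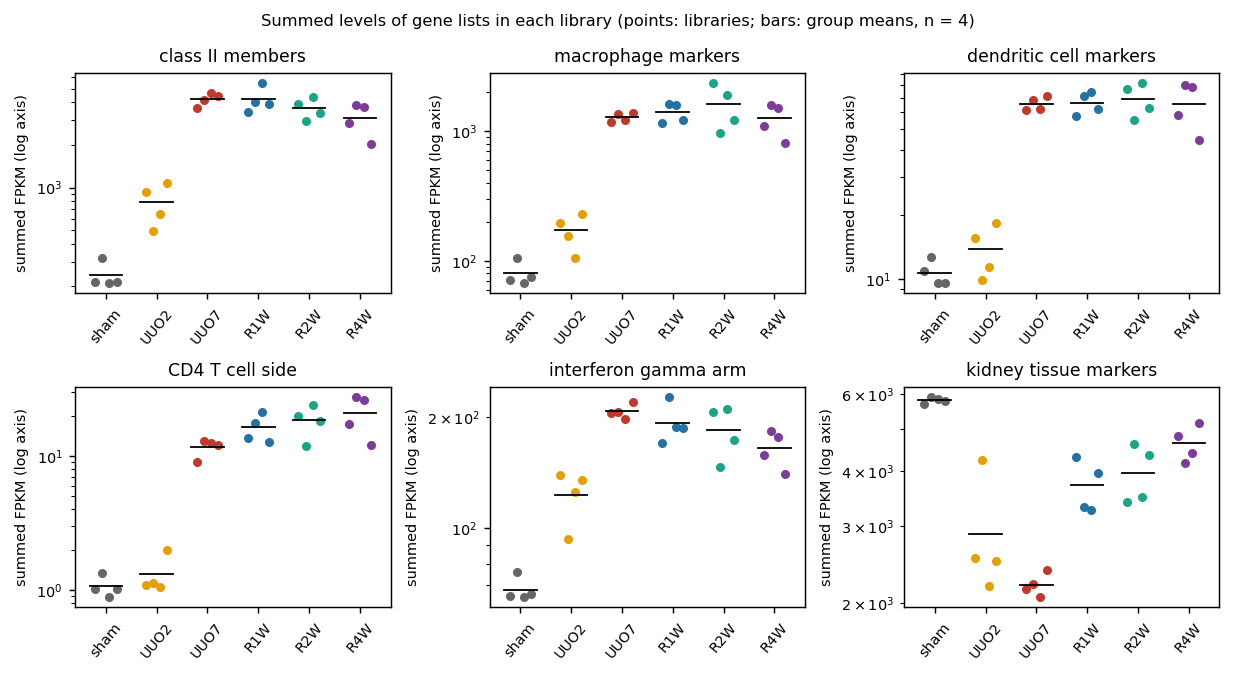
Summed FPKM (log axes) of the class II genes and of 5 other lists in each library, with bars at the group means (n = 4). Class II sums are 493 to 1069 FPKM in UUO2 and 3637 to 4688 in UUO7, macrophage sums are 105 to 231 and 1176 to 1391, and T cell means are 18.5 in R2W and 20.8 in R4W, an order that turns if R4W replicate 2 is placed in R2W (20.3 and 18.6).

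Dendritic cell markers were not called at 2 days, when the class II genes already were, in the fit on all libraries. Several were under 1 FPKM in sham, where the scale of FPKM + 1 understates changes, so a rise at 2 days may have been missed. Of 10 listed 8 had a row; limma called 0 in UUO2 against sham (median log2 fold change 0.11; 1, Itgax, at an unadjusted p under 0.05) and 8 in UUO7, R1W, R2W and R4W, on both scales. The shares of all genes called higher were 32.3% in UUO2 and 60.1%, 59.4%, 56.1% and 54.8% in the later groups. Without UUO2 replicate 2, Itgax (0.64, adjusted p = 0.0258) and Irf8 (0.38, adjusted p = 0.0428) were called higher at 2 days. Itgax, the CD11c integrin, was at 0.585 ± 0.0420 FPKM in sham, 1.28 ± 0.659 in UUO2, 8.50 ± 1.61 in UUO7 and 11.3 ± 4.25 in R4W. Flt3, the receptor for the dendritic cell growth factor, was at 0.135, 0.108, 1.52 and 1.97 FPKM, Zbtb46 at 1.25, 1.25, 5.06 and 4.34, and Irf8 at 6.08, 7.59, 20.7 and 22.6. Clec9a, a marker of type 1 dendritic cells, was at 0.490, 0.295, 2.68 and 4.57 and rose from UUO7 to R4W by 0.59 (adjusted p = 0.00129). Batf3 was at 1.57, 2.42, 16.1 and 11.1 and fell by 0.55 (adjusted p = 0.0411), but was not called after rescaling nor without any 1 of 6 of the 8 libraries compared, R4W replicates 2 and 3 excepted (0.0509 to 0.195). Cd209a was at 0.463, 0.720, 9.42 and 6.91 FPKM and Ccr7, the receptor of migrating dendritic cells, at 0.108, 0.125, 1.78 and 2.55. Neither was called between UUO7 and R4W, but Cd209a was lower without UUO7 replicate 1, R4W replicate 2 or R4W replicate 3 (adjusted p = 0.0127 to 0.0473) and Ccr7 higher without R4W replicate 4 (0.0232). Flt3 was not called either, but was higher after rescaling (0.27, adjusted p = 0.0452) and without R4W replicate 4 (0.34, adjusted p = 0.0182). The summed markers were 9.55 to 12.7 FPKM in sham, 9.89 to 18.3 in UUO2, 61.5 to 71.3 in UUO7 and 44.7 to 80.6 in R4W, with none at 0 in any library; their part in the class II levels was not tested.

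Of 7 B cell markers only Cd79b, a chain of the B cell receptor, had a row. It was at 0.792 ± 0.606 FPKM in sham, 0.795 ± 0.410 in UUO2, 5.10 ± 0.595 in UUO7 and 3.63 ± 0.683 in R4W, and was not called in UUO2 against sham (log2 fold change 0.03, adjusted p = 0.939). Endothelial markers summed to 45.0 to 81.5 FPKM in sham, 22.7 to 52.1 in UUO2, 120 to 135 in UUO7 and 112 to 137 in R4W.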

How the data were processed

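Kidney RNA of 24 mice in 6 groups was analysed from a table of 14785 genes deposited by the authors. The authors deposited values normalized per gene and library that were taken to be FPKM, inferred here because neither the labels nor the file headers state the unit. Their sums over a library were 717415 to 830179. The submitters' processing notes name FastQC, RSEM, Bowtie2, DESeq2 and mm10, without versions or roles. The authors' deposited log2 fold changes and adjusted p-values come with no test named in the file headers. The smallest gene mean was 1 FPKM, so lower genes are not analysed here. Depth was read from whole-read steps of low values and limits counting error only.

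A model with 1 coefficient per group was fitted to log2(FPKM + 1) of all 24 libraries in limma 3.58.1 under R 4.3.3 (lmFit, contrasts.fit and trended eBayes), with 9 contrasts. Benjamini-Hochberg adjustment ran over all genes, and a gene was called at an adjusted p under 0.05. Alternatives were rescaled values, pseudocounts of 0.1 and 10, a mean of at least 5 FPKM, fits on the 2 groups compared or without UUO2, R4W replicate 2 placed in R2W, a replicate block, stricter calls and each library left out. Running the library settings on the other gene lists, and the ratio of H2-Eb1 to H2-Aa, were added after seeing the data. The fit was tested on simulated data. Symbols that a spreadsheet had turned into dates were restored by gene identifier. Python 3.11.15 was used for the rest. Members and lists were chosen with earlier results of these data known. All 7 members are named, with at most 4 genes per list by greatest mean FPKM, every dendritic and B cell marker with a row, and 10 genes by each measure of likeness to the mean z score of the members, clone and model names left out. Of all deposited gene positions, 92.6% of 14767 equal those of the GRCm38 annotation at hand.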

Additional observations from a re-analysis of the deposited data

Results flagged for a closer look

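The members' levels and 5 ratios were checked in each group for a library far from the other 3, 72 checks in all, of which chance sets apart about 1 in 20; 3 did stand apart. H2-Ab1 was at 57.8 FPKM in sham replicate 2 against 38.3 to 40.2 in the other sham libraries, and Cd74 was at 117 FPKM there against 75.5 to 76.7. That library also had the highest summed adipose, urothelial and macrophage markers of the sham group, and their part was not tested. The ratio of H2-Eb1 to H2-Ab1 was 0.526 in UUO2 replicate 2 against 0.563 to 0.568 in the other UUO2 libraries.

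H2-Ob lay below every sham library in all 4 UUO2 libraries, with a difference of -0.26 on log2(FPKM + 1), and above every sham library in all libraries of UUO7, R1W, R2W and R4W. The difference between the groups was not tested in this form.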

How the results depend on the processing

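Against sham, the 7 members kept their direction and their call in all 527 refits of a fold change. In R4W against UUO7 the count of members called lower was 4; it was 2 after rescaling, 1 at an adjusted p under 0.01, 0 where a log2 fold change of 1 or more in size was also asked, 3 with the replicate block, and 1 to 4 with a library left out. In R4W against R1W the count of 1 became 0 after rescaling, with a pseudocount of 0.1, in the fit on 2 groups and under both stricter calls, and was 0 to 1 with a library left out. The replicate block changed no other count of members called; the deviations of libraries with the same number had mean correlations of -0.174 to 0.148, so the numbers were not taken as pairs. With a library left out, log2 fold changes of R1W against UUO7 changed sign in H2-Aa (-0.04 to 0.27), H2-Ab1 (-0.18 to 0.04), H2-Eb1 (-0.07 to 0.12), H2-DMa (-0.15 to 0.0019) and Ciita (-0.19 to 0.05), and that of Ciita in R4W against UUO7 ranged from -0.02 to 0.23. None of these was called, and the cause of the lost calls was not tested. Depth limits Ciita most, with 49 to 52 fragments in sham, and the depth of 3 of the 4 UUO2 libraries is unknown.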
